A study of Mus musculus with 8 samples.

Results

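The natriuretic peptide system of the mouse heart was described from 9 genes: the peptide precursors Nppa, Nppb and Nppc, the receptors Npr1, Npr2 and Npr3, the processing proteases Corin and Furin, and the degrading peptidase Mme. They were taken by symbol from the 55487 gene identifiers of the deposited count table. No filter was set on their values, but earlier results of these data were known. Of the 9, 8 were among the 17636 genes with enough counts to be tested. RNA came from hearts of 4 groups with 2 libraries each. These were Set7KO hearts after isoproterenol, Set7KO hearts after saline, WT hearts after isoproterenol and WT hearts after saline. Set7KO mice carry a global deletion of Set7, a lysine methyltransferase encoded by Setd7, and came from heterozygous crossings, while WT mice are wild type. Isoproterenol, a beta-adrenergic agonist used to load the heart, was injected subcutaneously at 60 mg/kg on 14 consecutive days, and saline was given to the other groups for the same time. Strain, sex and age were not given in the sources used here.

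Natriuretic peptides are hormones that heart muscle releases when it is stretched, and they lower blood volume and pressure. Nppa encodes the precursor of atrial natriuretic peptide, made mainly in the atria, and Nppb that of brain natriuretic peptide, which rises in the ventricles under load. Both act through Npr1, a receptor that makes cyclic GMP. Nppc encodes C-type natriuretic peptide, the ligand of the related receptor Npr2. Npr3 removes all of these peptides from the circulation. Corin is the cardiac protease that cuts the Nppa precursor, furin can cut the Nppb precursor, and neprilysin, encoded by Mme, degrades the finished peptides.

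Nppa (ENSMUSG00000041616, chr4:148000722-148002079, plus strand, GRCm38) and Nppb (ENSMUSG00000029019, chr4:147985788-147987205, plus strand) are neighbours, with 13516 bases between the end of Nppb and the start of Nppa. Sequences at their starts are shown as a description. These neighbours had unlike patterns over the libraries, and the part of their sequences in this was not tested. Among the factors that bind the letters marked here, a fold change is printed further on only for the factor that binds the NKE. In the 250 bases before the RefSeq start of Nppa (GRCm38.p6, chr4:148000472-148000721, plus strand), capitals mark a T-box core (GGTGTGA, here on the minus strand), 2 copies of the NKE letters AAGTG and 1 GATA match. For Nppb the stretch from the first to the last match is given (chr4:147985795-147985821, plus strand), which lies before the RefSeq start but inside the gene as GENCODE draws it, with an M-CAT match (CATTCC, on the minus strand) and 2 GATA matches in capitals.
Nppa: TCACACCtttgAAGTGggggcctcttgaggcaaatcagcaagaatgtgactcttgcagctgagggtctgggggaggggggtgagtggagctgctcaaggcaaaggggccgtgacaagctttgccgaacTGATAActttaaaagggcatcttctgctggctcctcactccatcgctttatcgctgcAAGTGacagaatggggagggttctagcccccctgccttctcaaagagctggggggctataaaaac
Nppb: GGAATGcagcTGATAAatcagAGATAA
The search covered both strands. Among 32851 RefSeq promoter windows of the same length, 26.5% held a GATA match (AGATAA or AGATAG or TGATAA or TGATAG), 12.6% an M-CAT match, 40.7% the NKE letters and 3.33% the T-box core. The CRE core TGACG, the AP-1 motif TGANTCA and the CArG box CCWWWWWWGG (W is A or T) had no exact match in either window. They were present in 17.8%, 6.75% and 1.47% of windows. Sites that depart from a motif by a letter were not searched for. A match describes the letters and is not evidence that a factor was bound.

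Depth and sample checks came first. Libraries held 27847069 to 51705705 counts, and 3 counts, the most that a count of 0 allows, corresponded to 0.0598 to 0.112 CPM (counts scaled to a common library total) depending on the library. The targeted gene Setd7 had 3.79 to 5.70 normalised CPM in Set7KO and 43.0 to 72.6 in WT hearts, a 12.01-fold lower level in Set7KO (edgeR quasi-likelihood test, Benjamini-Hochberg adjusted p = 0.000356). Summed cardiomyocyte markers spanned 1.4-fold and ventricular markers 1.93-fold over the 8 libraries. The 5 atrial markers (Myl4, Myl7, Sln, Mybphl and Bmp10) spanned 389-fold, with 13.5 and 5.67 CPM in Set7KO isoproterenol libraries, 138.5 and 12.1 in Set7KO saline, 2.75 and 254.0 in WT isoproterenol, and 1068 and 17.1 in WT saline. Lung markers were at 0 in all 8 libraries. Libraries also differed by the GC content of their genes. The median log2 deviation of the GC-richest of 5 equal gene classes minus that of the GC-poorest was −1.08 and −0.78 in WT isoproterenol libraries, against 0.55 and 0.86 in WT saline libraries. In Set7KO it was 0.19 and 0.64 after isoproterenol, against 0.36 and −0.91 after saline. Fold changes were therefore recomputed with offsets, estimated for each library, that level out GC content and exon length. The trend separated the treatments in WT and the genotypes within each treatment. Offsets can thus also remove differences between groups that go with GC content or length. Trend and groups cannot be told apart here, so values with offsets are a second reading and not corrected effects.

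Per kilobase of exon, peptide precursors stood above receptors and proteases, and the clearance receptor and neprilysin were lowest. Nppa had a median of 384.5 normalised CPM per kb over the 8 libraries (225.7 to 1857), and Nppb 250.8 (86.5 to 598.8). Corin followed at 26.7 (12.1 to 53.5), Furin at 18.3 (12.3 to 30.6), Npr2 at 17.3 (15.3 to 19.9) and Npr1 at 11.0 (7.05 to 13.1). Npr3 was at 0.798 (0.427 to 0.984) and Mme at 0.0754 (0.0476 to 0.276). Nppc (ENSMUSG00000026241, chr1:86666291-86670571, minus strand) had 0 counts in all 8 libraries, so its level lay below the floor of 3 counts per library.

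**Figure D1:**
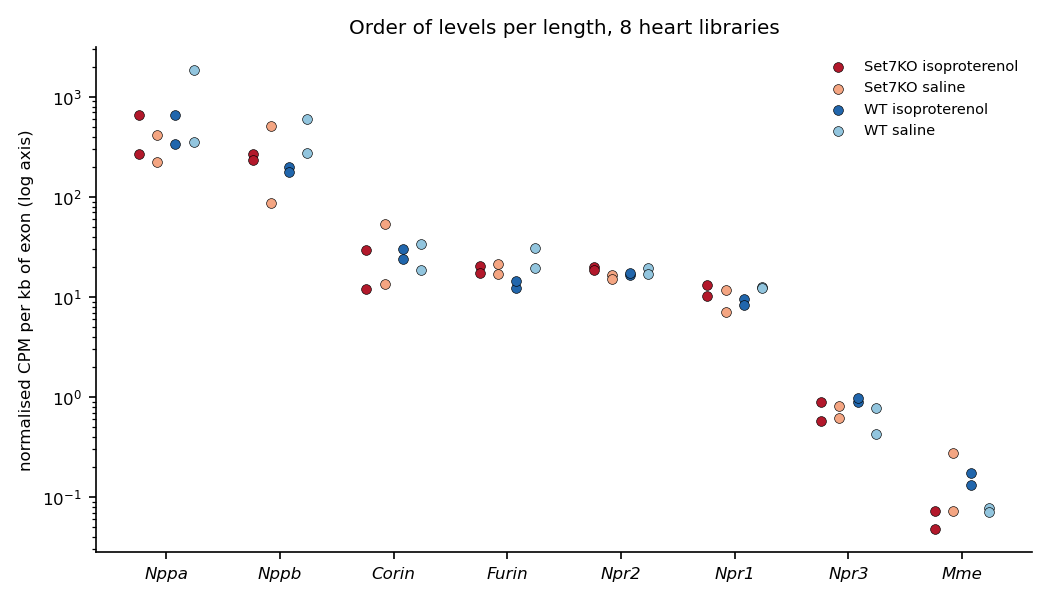
Level of each gene with counts in each of 8 heart libraries, in normalised CPM per kilobase of exon on a log axis, coloured by group. Nppa and Nppb lie above all other members in every library, Npr2 lies above Npr1 in all 8, and Npr3 and Mme lie below 1 CPM per kb.

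Read within each library, this order held in all 8 for Nppb above Corin, Npr2 above Npr1, Npr1 above Npr3, and Npr3 above Mme. The other neighbours in the order overlapped: Nppa was above Nppb in 6 of 8 libraries, Corin above Furin in 5, and Furin above Npr2 in 4. Of the guanylyl cyclase receptors, Npr2 had 1.38 to 2.17 times the level of Npr1 per kb, although its ligand gene Nppc had no count. Transcripts of Npr3 stood at 0.0344 to 0.119 times those of Npr1 per kb. Which cells carried a receptor cannot be read from RNA of the tissue, in which fewer cells of a type and less RNA per cell cannot be told apart.

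Members differed widely in how much libraries of 1 group spread. The biological coefficient of variation, the relative spread between libraries of a group beyond counting error, was 50.4% for Nppa, 47% for Nppb, 43.9% for Corin and 41% for Mme. Those values lay between the 89.2nd and 94.2nd percentile of all genes tested, whose median was 25.8%. Npr3 (28.1%) lay near the median gene, at percentile 60.8. Npr1 (22.1%) and Furin (22%) lay below it, at percentiles 26.7 and 26.5. Npr2 was among the steadiest transcripts of the heart, with a coefficient of 17.4% at percentile 0.261.

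**Figure D2:**
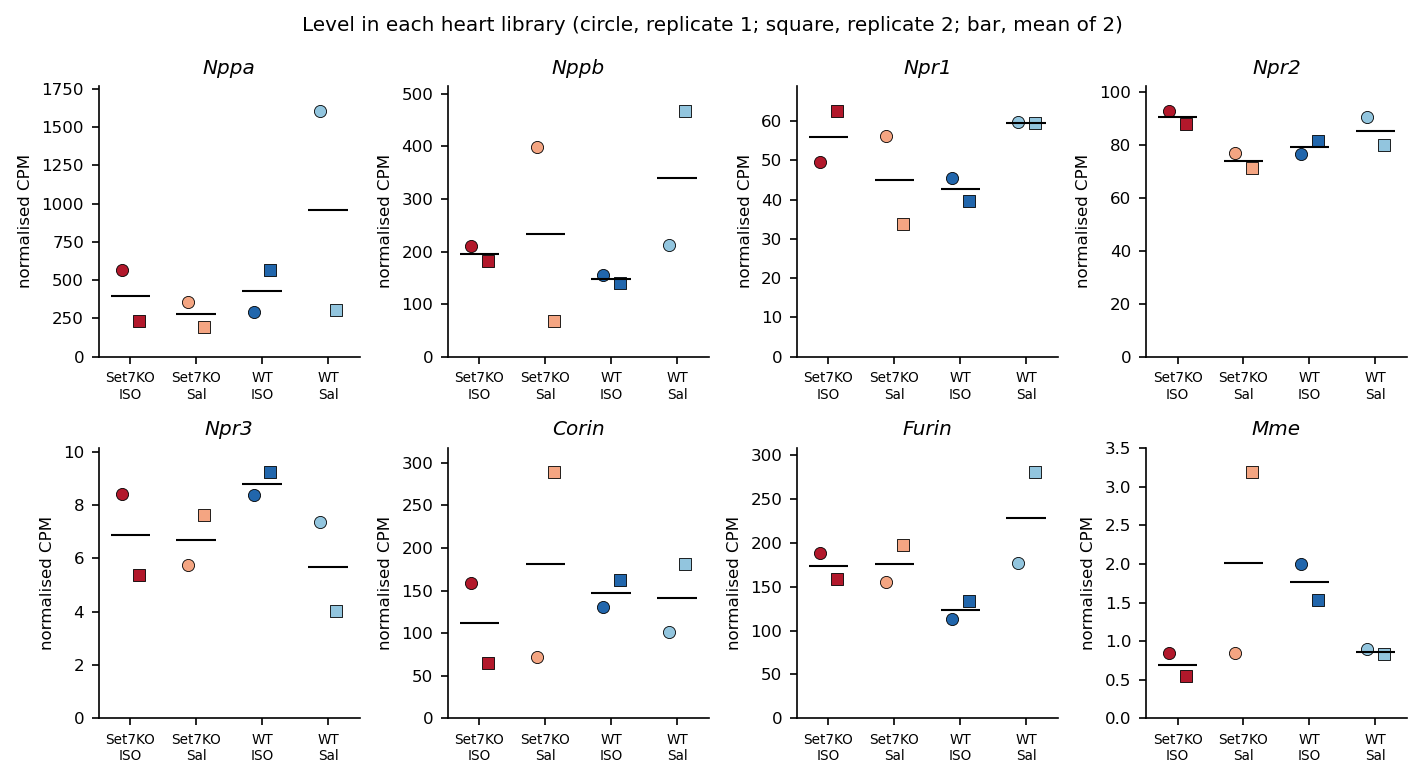
Normalised CPM of the 8 members with counts in every library, grouped from left to right as Set7KO isoproterenol, Set7KO saline, WT isoproterenol and WT saline; circles and squares are replicates 1 and 2 and bars are means of 2. Nppa is far above the rest in WT saline replicate 1 (1606 CPM), Corin and Mme are highest in Set7KO saline replicate 2 (289.0 and 3.19 CPM), and Npr2 stays between 71.2 and 92.9 CPM throughout.

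Nppa reached 566.5 and 230.7 normalised CPM in Set7KO isoproterenol hearts and 359.0 and 195.2 in Set7KO saline hearts. It reached 292.9 and 569.0 in WT isoproterenol hearts and 1606 and 306.2 in WT saline hearts. A single library, WT saline replicate 1, stood well above the other 7, which spanned 195.2 to 569.0, and the groups overlapped in every comparison. That library also had the highest atrial marker sum, 1068 CPM, with Myl4 at 483.6 and Myl7 at 445.3 CPM. Bmp10, another atrial marker, was at 0 in that library and had counts only in Set7KO saline replicate 2, at 0.578 CPM. How much of the Nppa level came from atrial tissue was not tested.

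Nppb did not follow that library. It reached 210.4 and 181.4 normalised CPM in Set7KO isoproterenol hearts, 398.4 and 67.5 in Set7KO saline hearts, 154.9 and 140.2 in WT isoproterenol hearts, and 212.8 and 467.7 in WT saline hearts. Both WT isoproterenol libraries lay below both WT saline libraries, while the Set7KO saline libraries lay at opposite ends and enclosed both Set7KO isoproterenol libraries. As a share of the Nppa and Nppb levels per kb together, Nppa took 70.9% and 53.5% in Set7KO isoproterenol, 44.9% and 72.3% in Set7KO saline, 63.1% and 78.6% in WT isoproterenol, and 87.2% and 37.1% in WT saline libraries. Nppa thus took the larger share in 6 libraries and Nppb in 2, which were saline libraries, 1 of each genotype.

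**Figure D3:**
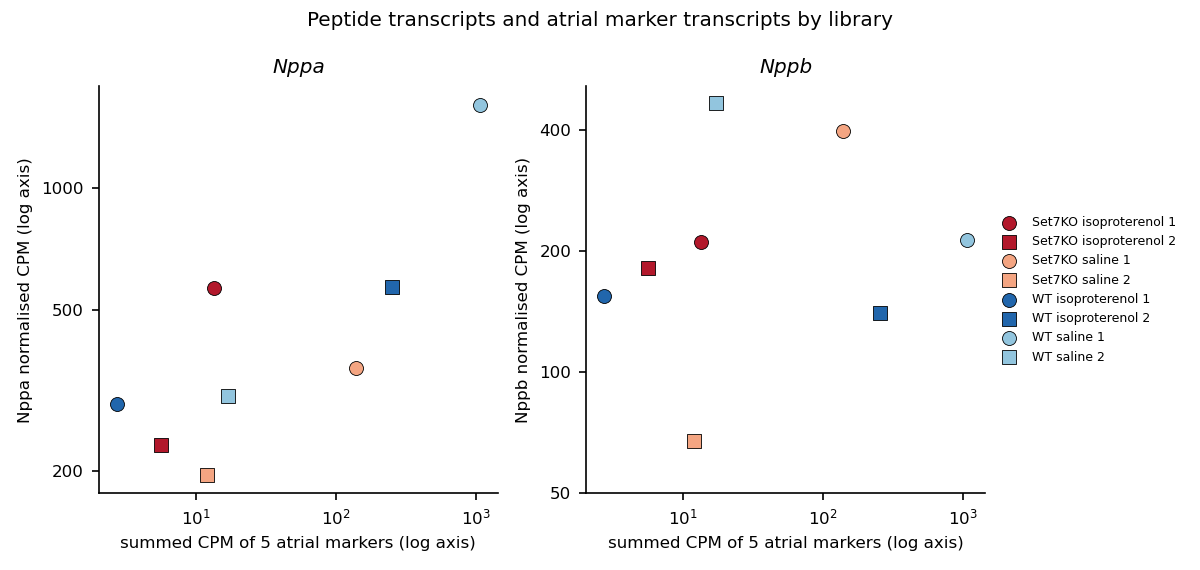
Nppa (left) and Nppb (right) in normalised CPM against the summed CPM of 5 atrial markers, both on log axes, 1 point per library. WT saline replicate 1, with an atrial sum of 1068 CPM, has the highest Nppa (1606 CPM) but a middling Nppb (212.8 CPM).

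The locus holds a further transcript. Gm13054 (ENSMUSG00000086806, chr4:148001091-148004014) lies on the minus strand and overlaps Nppa by 989 bases. It had 2.59 and 0.659 normalised CPM in Set7KO isoproterenol, 1.92 and 1.06 in Set7KO saline, 1.72 and 3.00 in WT isoproterenol, and 8.02 and 1.62 in WT saline libraries. Its highest library was that of Nppa. Whether counting used the strand was not given in the sources used here, so reads of Nppa and Gm13054 cannot be told apart.

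Among the receptors, Npr1 (ENSMUSG00000027931, chr3:90450591-90465866, minus strand) had 49.4 and 62.6 normalised CPM in Set7KO isoproterenol, 56.1 and 33.7 in Set7KO saline, 45.6 and 39.7 in WT isoproterenol, and 59.7 and 59.4 in WT saline hearts. Both WT isoproterenol libraries were below both WT saline libraries, and the Set7KO treatments overlapped. Npr1 is GC-rich (57.4% GC in its longest transcript). With GC and length offsets its 8 values came closer together. The highest was then 1.30 times the lowest, against 1.86 without them.

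Npr2 (ENSMUSG00000028469, chr4:43631935-43651244, plus strand) had 92.8 and 87.8 normalised CPM in Set7KO isoproterenol, 76.8 and 71.2 in Set7KO saline, 76.6 and 81.5 in WT isoproterenol, and 90.6 and 80.0 in WT saline hearts. Its highest value was 1.30 times its lowest, and 1.31 times with GC and length offsets. Isoproterenol libraries of Set7KO lay above their saline libraries, and those of WT overlapped.

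The clearance receptor Npr3 (ENSMUSG00000022206, chr15:11839896-11907287, minus strand) had 8.40 and 5.38 normalised CPM in Set7KO isoproterenol, 5.75 and 7.63 in Set7KO saline, 8.37 and 9.24 in WT isoproterenol, and 7.35 and 4.01 in WT saline hearts. Both WT isoproterenol libraries exceeded both WT saline libraries, whereas the Set7KO groups overlapped. Its longest transcript is GC-poor (44%), on the other side of the GC trend from Npr1.

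Of the proteases, Corin (ENSMUSG00000005220, chr5:72300025-72504473, minus strand) had 158.3 and 65.3 normalised CPM in Set7KO isoproterenol, 72.2 and 289.0 in Set7KO saline, 130.4 and 162.9 in WT isoproterenol, and 101.3 and 181.3 in WT saline hearts. Groups overlapped in every comparison, and the Set7KO saline pair alone covered a 4-fold range. Furin (ENSMUSG00000030530, chr7:80388585-80405436, minus strand) had 188.3 and 158.2 in Set7KO isoproterenol, 155.1 and 197.0 in Set7KO saline, 112.6 and 133.6 in WT isoproterenol, and 176.9 and 280.4 in WT saline hearts. Its lowest values were the pair of WT isoproterenol libraries, which lay below all 6 others. The level of Corin per kb was 0.702 to 2.49 times that of Furin.

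Neprilysin transcripts were scarce. Mme (ENSMUSG00000027820, chr3:63241537-63386030, plus strand) had 28 and 15 counts in Set7KO isoproterenol, 26 and 160 in Set7KO saline, 88 and 53 in WT isoproterenol, and 24 and 25 in WT saline libraries. In normalised CPM it had 0.843 and 0.549 in Set7KO isoproterenol, 0.845 and 3.19 in Set7KO saline, 2.00 and 1.53 in WT isoproterenol, and 0.896 and 0.829 in WT saline libraries. Set7KO saline replicate 2 and both WT isoproterenol libraries stood above the other 5. These were also the 3 libraries with a negative GC trend (−0.91, −1.08 and −0.78). Mme has the lowest GC content of the members in its longest transcript (38%). With GC and length offsets its highest value was 2.56 times its lowest, against 5.81 without them. Both WT isoproterenol libraries are among those 3, so treatment and the GC trend cannot be told apart in WT. The part of the GC trend in the Mme values was not tested.

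Set7KO saline replicate 2, the highest library for Corin and Mme and the lowest for Nppa, Nppb, Npr1 and Npr2, also had the highest neutrophil and erythroid marker sums of the 8 libraries (101.3 and 6082 CPM, with at most 12.99 and 2483 CPM in the other 7). Its endothelial and its smooth muscle and pericyte marker sums (855.9 and 332.7 CPM) were the lowest of the 8 libraries. It also held the most counts (51705705) and had a GC trend of −0.91. The part of these traits in the values of this library was not tested.

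Isoproterenol against saline in WT hearts asks how the loaded heart with Set7 adjusts the system. No member passed the threshold of an adjusted p under 0.05 in the edgeR quasi-likelihood test, nor did any of the 17636 genes (0%). limma-voom called 0 members and 0 genes, and DESeq2 called 1 member and 2719 genes. At an unadjusted p under 0.05 in edgeR, 1 of 8 members was called beside 31.7% of all genes (5599). The groups of 2 did not overlap for 5 of 8 members, beside 72.7% of all genes. Nppb, Npr1 and Furin were lower in both isoproterenol libraries, and Npr3 and Mme were higher. The labels do not say that the libraries of a group are separate animals, so each p measures only the spread between these samples. Marker sums of several cell types also did not overlap between these groups, as was so for 72.7% of all genes. Cardiomyocyte markers summed to 54310 and 56600 CPM in WT isoproterenol, against 64600 and 76050 in WT saline libraries. Ventricular markers summed to 16280 and 16750 CPM, against 24740 and 31350. Of these lists, Ryr2 (log2 fold change 0.64 ± 0.58) and Hey2 (0.55 ± 0.45) went the other way. Endocardial markers summed to 39.05 and 48.06 CPM, against 72.22 and 81.01, and endothelial markers to 1050 and 1022, against 1095 and 1603. Lymphocyte markers summed to 1.23 and 0.837 CPM in WT isoproterenol, against 5.90 and 6.5 in WT saline libraries, and macrophage markers to 112.9 and 101.7 CPM, against 199.7 and 256.9. Fibroblast markers summed to 604.3 and 503.0 CPM in WT isoproterenol, against 285.0 and 414.4 in WT saline libraries. The single fibroblast markers did not all go this way. Dcn (log2 fold change 1.65 ± 0.42), Lum (2.62 ± 0.47) and Pdgfra (0.64 ± 0.29) were higher, while Tcf21 (−0.62 ± 0.38) and Col1a1 (−0.39) were lower. Erythroid markers summed to 878.4 and 726.8 CPM in WT isoproterenol, against 2168 and 2394 in WT saline libraries. Their part in the members' values was not tested.

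Furin had the smallest p in WT, with a log2 fold change of −0.89 ± 0.27 (SE; 1.86-fold lower, unadjusted p = 0.0107, edgeR adjusted p = 0.0997, n = 2 against 2). DESeq2 called it, with a log2 fold change of −0.94 and an adjusted p of 0.0186, and with GC and length offsets edgeR did not, at −0.59. Nppb averaged 148 ± 10.4 normalised CPM in WT isoproterenol and 340.2 ± 180.2 in WT saline hearts (SD, n = 2 each), a log2 fold change of −1.21 ± 0.69 (edgeR adjusted p = 0.245) with a 95% interval of −2.78 to 0.37. Nppa had a log2 fold change of −1.15 ± 0.74 (edgeR adjusted p = 0.295), but 0.49 without WT saline replicate 1. Leaving out either Set7KO saline library keeps all WT libraries but changes the estimate of the spread and the set of genes tested, and edgeR then called Nppb and Furin in WT. Without replicate 1 of that group the adjusted p was 0.044 for Nppb and 0.0468 for Furin, among 3676 genes called. Without replicate 2 it was 0.0408 and 0.0406, among 3765 genes.

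The receptor values in WT moved with the offsets. Npr1 had a log2 fold change of −0.48 ± 0.28 (edgeR adjusted p = 0.246) that became 0.03 with GC and length offsets. Npr3 had 0.63 ± 0.37 (edgeR adjusted p = 0.25) that became −0.35 with them. Mme, the peptidase, went likewise, with 1.03 ± 0.59 (edgeR adjusted p = 0.247) that became −0.47. Nppb and Furin kept their sign with offsets, and Nppb then stood at −1.47. Values for Npr2 and Corin were smaller than their SE. The median of the 8 members was −0.30, beside 0.06 over all genes tested.

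Isoproterenol against saline in Set7KO hearts asks the same without Set7. No member and no gene passed the adjusted threshold in edgeR (0%) or limma-voom, and DESeq2 called 0 members and 101 genes. In edgeR 1 of 8 members had an unadjusted p under 0.05 beside 9.66% of all genes (1704). That member was Mme, with a log2 fold change of −1.54 ± 0.60 (2.91-fold lower, unadjusted p = 0.0318, edgeR adjusted p = 0.502), with Set7KO saline replicate 2 far above the other 3 libraries. With GC and length offsets it was −0.63. Without that library it was −0.27, and without Set7KO saline replicate 1 it was −2.18 and was called (edgeR adjusted p = 0.0407, among 486 genes). Npr2 had 0.29 ± 0.19 (edgeR adjusted p = 0.653), Npr1 0.32 ± 0.28 (0.726) and Corin −0.69 ± 0.63 (0.742). Corin stood at 0.64 without Set7KO saline replicate 2. The fold changes of Nppa (0.52), Nppb (−0.25), Npr3 (0.04) and Furin (−0.02) were within 1 SE of 0. For Nppb the 95% interval was −1.81 to 1.31, which contains the WT value. Groups did not overlap for Npr2 and Mme, 2 of 8 members, beside 34.7% of all genes. For Mme this rested on 0.843 CPM (28 counts) in an isoproterenol library against 0.845 CPM (26 counts) in a saline library. The median of the 8 members was 0.01, beside −0.04 over all genes.

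**Figure D4:**
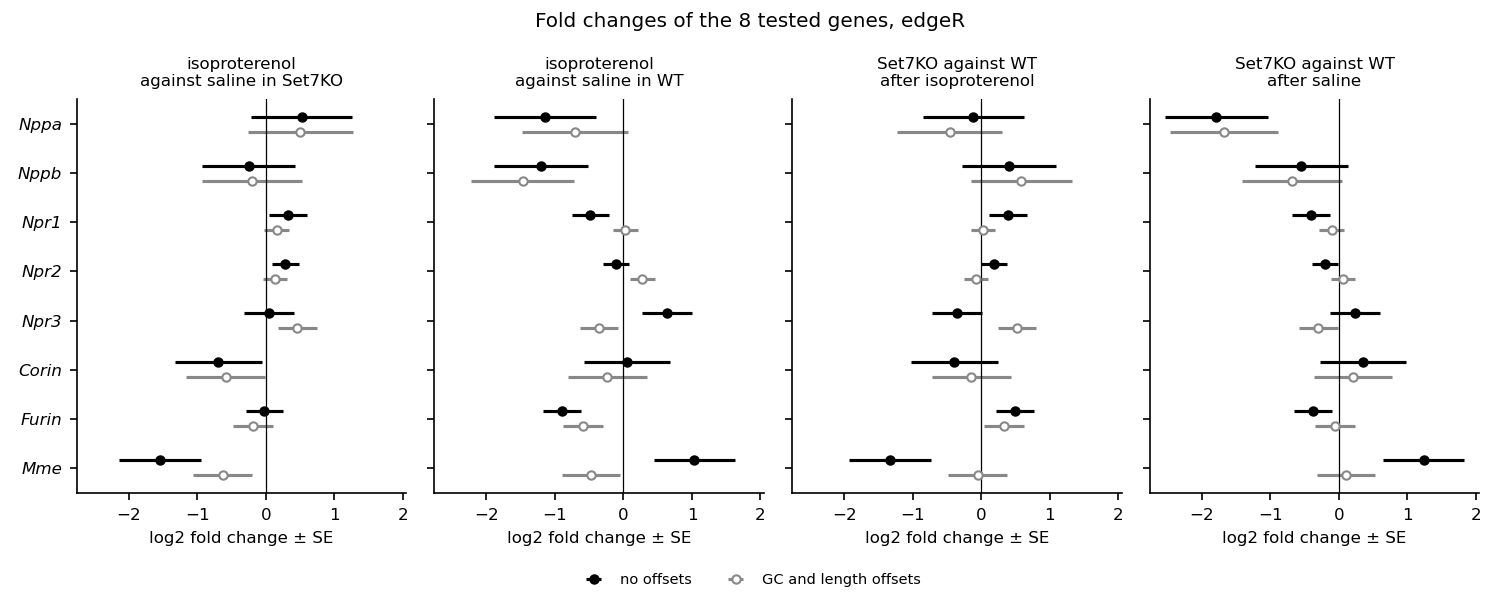
Log2 fold change ± SE of the 8 tested members in 4 comparisons, without (filled) and with (open) offsets for GC content and exon length. Without offsets Furin, Nppb, Nppa and Npr1 lie left of 0 for isoproterenol in WT; with offsets Npr1 moves to 0.03, while Npr3 and Mme cross to −0.35 and −0.47.

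Averaged over genotypes, isoproterenol separated none of the members: all 8 had overlapping groups of 4 and 4, while 4.13% of all genes had groups that did not overlap. edgeR called 0 members and 0.051% of genes after adjustment, and 1 member beside 9.4% of genes before it. The member was Furin at −0.46 ± 0.19 (unadjusted p = 0.043, edgeR adjusted p = 0.507). Nppb had −0.73 ± 0.48 (0.641) and Npr3 0.34 ± 0.26 (0.678). The Nppb value was 0.16 without Set7KO saline replicate 1.

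The loss of Set7 was compared within each treatment. After isoproterenol, edgeR called 0 members and 0.00567% of genes after adjustment, and 0 members and 19.9% of genes before it. Both Set7KO isoproterenol libraries were above both WT isoproterenol libraries for Nppb, Npr1, Npr2 and Furin, and below them for Mme, which makes 5 of 8 members beside 68.2% of all genes. Furin had a log2 fold change of 0.49 ± 0.27 (edgeR adjusted p = 0.309), Npr1 0.39 ± 0.28 (0.398) and Npr2 0.19 ± 0.19 (0.539). With GC and length offsets these were 0.34, 0.03 and −0.08. Mme had −1.33 ± 0.60 (0.256), which was −0.05 with GC and length offsets. Nppb, at 0.41, lay within its SE of 0 even though its libraries did not overlap.

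After saline, edgeR called 0 members and 0.00567% of genes after adjustment, and 1 member beside 10.3% of genes before it. The member was Nppa, with a log2 fold change of −1.79 ± 0.76 (3.45-fold lower in Set7KO, unadjusted p = 0.0442, edgeR adjusted p = 0.483), whose groups overlapped. Without WT saline replicate 1, the library rich in atrial markers, it was −0.15. With the atrial marker sum as a covariate it was −0.97. Without the 3 libraries highest in atrial markers it was −0.65, with 1 library left in each saline group. Npr1 (−0.41 ± 0.28, edgeR adjusted p = 0.559) and Npr2 (−0.21 ± 0.19, 0.651) were lower in both Set7KO saline libraries, the reverse of their order after isoproterenol. These were the 2 of 8 members whose groups did not overlap, beside 38% of all genes, and with GC and length offsets they stood at −0.10 and 0.06. Furin had −0.38 ± 0.27 (0.577) and Mme 1.24 ± 0.59 (0.489), both with overlapping groups. Without Set7KO saline replicate 1 edgeR called Nppb and Mme (adjusted p = 0.0391 for Mme), among 1030 genes, and without Set7KO saline replicate 2 the Mme value was −0.005.

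Averaged over treatments, edgeR called 0 members and 0.00567% of genes after adjustment, and 0 members and 1.56% of genes before it. All 8 members overlapped between the 4 Set7KO and the 4 WT libraries, while 0.556% of all genes did not. Nppa had the only fold change beyond its SE, −0.95 ± 0.52 (edgeR adjusted p = 1), and −0.10 without the 3 libraries highest in atrial markers. That last fit kept 1 library each of WT saline, WT isoproterenol and Set7KO saline.

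Whether isoproterenol acted differently in Set7KO than in WT hearts was tested by the interaction, the log2 fold change in Set7KO minus that in WT. edgeR called 0 members and 0% of genes after adjustment, and 1 member beside 30.6% of genes (5400) before it. limma-voom also called 0 genes, and DESeq2 called 0 members and 2321 genes. The member was Mme at −2.57 ± 0.84 (unadjusted p = 0.0149, edgeR adjusted p = 0.111), which was −0.16 with GC and length offsets. Furin had 0.87 ± 0.38 (0.166), Npr1 0.80 ± 0.39 (0.195), Npr2 0.40 ± 0.27 (0.324), Npr3 −0.59 ± 0.52 (0.438) and Nppa 1.67 ± 1.04 (0.286). With the offsets these were 0.40, 0.13, −0.14, 0.81 and 1.21, so that Npr2 and Npr3 changed sign. Without WT saline replicate 1 the Nppa value was 0.04. Without Set7KO saline replicate 1 edgeR called Nppb, Npr1 (adjusted p = 0.0269) and Mme (0.00856), among 5778 genes. A difference between genotypes in the response of the system did not pass the test with all 8 libraries at 2 a group. For Nppb the 95% interval of the interaction was −1.25 to 3.16.

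Other genes of the pathway gave a frame for these values. None of 12 tested genes of cyclic GMP synthesis, targets and breakdown passed the adjusted threshold in any comparison. In WT, isoproterenol against saline, 5 had higher and 1 had lower values with an unadjusted p under 0.05, beside 31.7% of all genes, and the list had a median log2 fold change of 0.73 beside 0.06 over all genes. Among them were Pde5a, a phosphodiesterase that degrades cyclic GMP (1.64 ± 0.40, edgeR adjusted p = 0.0941), Prkg1, the cyclic GMP-dependent kinase (1.55 ± 0.45, 0.096), and Gucy1b1, a subunit of the nitric oxide-sensitive cyclase (1.02 ± 0.28, 0.0959). With GC and length offsets these 3 stood at 0.99, 0.31 and 0.13 and the median of the list at −0.05, with 1 gene higher and 0 lower at that unadjusted level. In Set7KO 0 were higher and 1 lower, with a median of 0.07. That 1 was Rgs2, a regulator of G protein signalling that the kinase activates, at −1.03 ± 0.44 (edgeR adjusted p = 0.515).

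Of 15 tested transcription factors described for Nppa or Nppb, 4 had higher and 4 had lower values in WT with an unadjusted p under 0.05, beside 31.7% of all genes, and the list had a median of −0.17 and none past the adjusted threshold. Srf, which binds CArG boxes, had −1.09 ± 0.24 (edgeR adjusted p = 0.0941) and Nkx2-5, which binds the NKE, −0.95 ± 0.26 (0.0944), while Mef2c had 1.54 ± 0.41 (0.0941). With offsets these were −0.47, −0.38 and 0.15, and 0 of 15 were left at that unadjusted level. In Set7KO none of the 15 reached it, with a median of −0.07. Of 3 tested peptidases or ligands that act on the peptides or on corin, Ide, the insulin-degrading enzyme, had 1.05 ± 0.41 in WT, and Pcsk6, which activates corin, −0.75 ± 0.31, without an adjusted call. With offsets they stood at −0.001 and −0.32.

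The 7 tested genes within 100000 bases of Nppa or Nppb, members aside, had a median of −0.54 in WT, with 2 lower at an unadjusted p under 0.05 beside 31.7% of all genes. With GC and length offsets the median was −0.03 and 0 reached that level. In Set7KO the median was 0.17 and 0 reached that level. No gene of this neighbourhood passed the adjusted threshold in any comparison.

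Of 10 load genes of heart muscle, 3 had higher values after isoproterenol averaged over genotypes with an unadjusted p under 0.05 and 0 lower, beside 9.4% of all genes, with none past the adjusted threshold. They were Fhl1, Ankrd1 and Xirp2. The list had a median of −0.07, beside 0.02 over all genes tested. Acta1 (−1.26 ± 0.72), Rcan1, Atp2a2, Myh7 and Myh6 had values below 0, and Csrp3 (0.02) and Ccn2 (0.01) lay near 0. In WT 3 were higher and 0 lower at that unadjusted level, beside 31.7% of all genes, with a median of −0.28. In Set7KO 2 were higher and 1 lower, beside 9.66% of all genes, with a median of 0.02. Fhl1, a sarcomere LIM protein, had 447.4 and 214.4 normalised CPM in Set7KO isoproterenol, 70.1 and 105.3 in Set7KO saline, 502.0 and 132.8 in WT isoproterenol, and 83.5 and 85.4 in WT saline hearts. Ankrd1, a stress-responsive ankyrin repeat protein of the sarcomere, had 2527 and 2146 in Set7KO isoproterenol, 1240 and 406.6 in Set7KO saline, 3024 and 1903 in WT isoproterenol, and 1125 and 655.9 in WT saline hearts. All 4 isoproterenol libraries were above all 4 saline libraries for both genes, which were picked for this after their values were seen, so that the separation is a description. Averaged over genotypes the log2 fold changes were 1.91 ± 0.42 for Fhl1 (unadjusted p = 0.0016, edgeR adjusted p = 0.193) and 1.49 ± 0.36 for Ankrd1 (0.00279, 0.229). With offsets Fhl1 stood at 1.86 in WT and 1.92 in Set7KO, and Ankrd1 at 1.12 and 1.6.

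Xirp2, an actin-binding protein of the intercalated disc, went opposite ways in the genotypes. It had 71.8 and 111.5 normalised CPM in Set7KO isoproterenol, 136.2 and 197.7 in Set7KO saline, 261.0 and 244.8 in WT isoproterenol, and 76.6 and 45.9 in WT saline hearts. Its log2 fold change was −0.87 ± 0.33 in Set7KO (edgeR adjusted p = 0.502) and 2.05 ± 0.34 in WT (0.0941), with an interaction of −2.91 ± 0.47 (0.0876). With offsets these were −0.25, 0.83 and −1.08. Acta1, skeletal muscle actin, had −2.10 ± 1.05 in WT (edgeR adjusted p = 0.198; −1.54 with offsets).

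**Figure D5:**
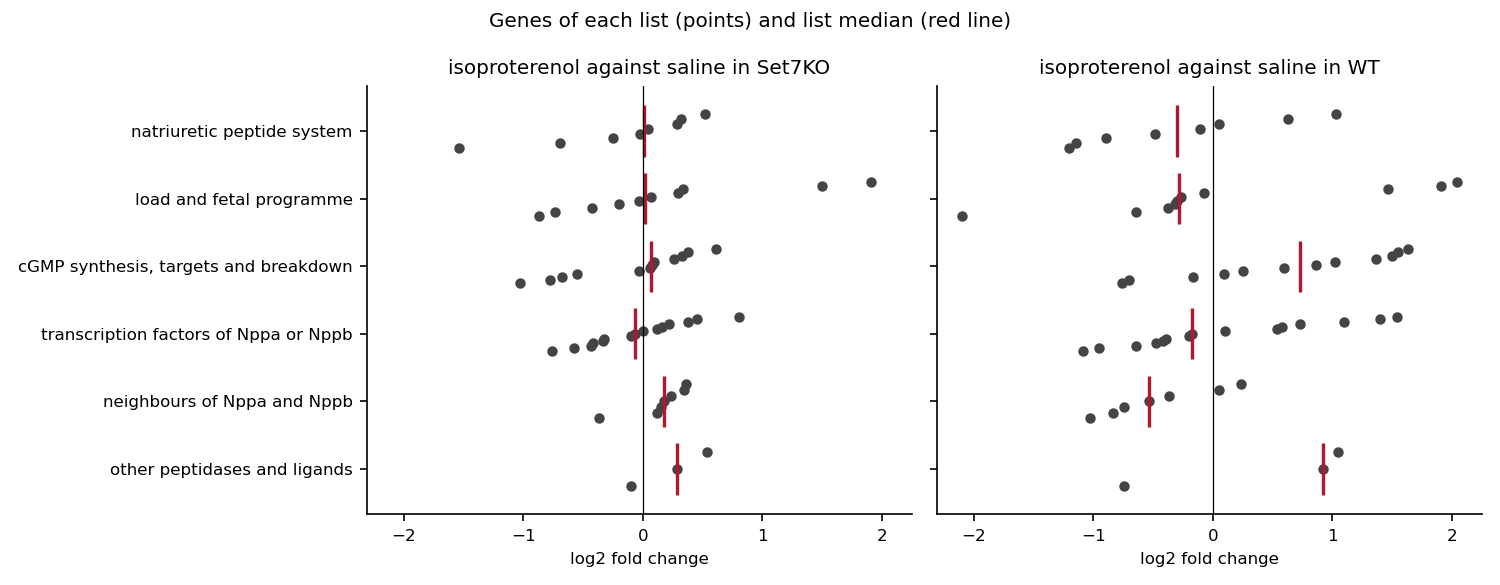
Log2 fold change after isoproterenol of each tested gene in 6 lists, in Set7KO (left) and WT (right), with the list median in red. In WT the members' median is −0.30 and that of the cyclic GMP list 0.73; in Set7KO these are 0.01 and 0.07.

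The genes whose pattern over the 8 libraries was most like that of each member were named among 11617 protein-coding genes, by Pearson's r of log2 normalised CPM, as a description. For Nppa these were Plekha7 (r = 0.952), Bsdc1 (0.923) and Pdgfa (0.923), and for Nppb Efhd1 (0.988), Trp53i11 (0.98) and Aldh18a1 (0.977). Npr1 was most like N4bp3 (0.99), Rrp36 (0.985) and Lsm4 (0.985), Npr2 like Prr15 (0.974), Brd2 (0.967) and Pdcd2 (0.944), and Npr3 like Lamtor3 (0.954), Chka (0.949) and Cdkn1b (0.947). Corin was most like Naca (0.989), Acsl1 (0.987) and Gnpat (0.987), Furin like Crat (0.995), Tmem38a (0.991) and Hfe2 (0.988), and Mme like Bhlhb9 (0.982), Dnaja2 (0.975) and Psmc2 (0.974). None of these 24 genes was another member. The points share their library, its depth and its GC trend, and no p is given.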

How the data were processed

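Hearts of 4 groups were profiled by RNA sequencing, with TruSeq stranded mRNA libraries read as 75 cycles of single reads on a NextSeq 500, per the labels' protocols. The deposited values are whole-number counts per gene, not normalised by the authors. Per the submitters' processing notes, the build was GRCm38 and the tools edgeR, StringTie, HISAT and HISAT2. Their versions, roles and strand setting were not given in the sources used here. Symbols, exon lengths and coordinates came from GENCODE M21, which named 55227 of 55487 identifiers.

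Groups follow the labels, and replicate numbers only name libraries. All 8 libraries were fitted with edgeR 4.0.16 in R 4.3.3 (TMM, filterByExpr, 1 mean per group, 4 residual and 4.36 prior degrees of freedom, common coefficient of variation 28.4%). Quasi-likelihood F-tests were two-sided, adjusted by Benjamini-Hochberg over 17636 genes for each of 7 contrasts and read at a threshold of 0.05. SE came from the F statistic. Fold changes are printed with an SE only where they exceed it. Normalised CPM use TMM library sizes, and per-kb levels divide them by merged exon length; floors cover counting error only. Offsets came from the GC content of each gene's longest transcript and from merged exon length. Each was fitted per library by a natural spline with 5 degrees of freedom. Likeness used log2(CPM + 0.5) over genes with a mean of at least 1 CPM. Alternatives were DESeq2 1.42.0, limma-voom 3.58.1, DESeq2 size factors, no filter, 1 CPM in 2 libraries, the compared groups alone, leaving out each library and, chosen after seeing the data, an atrial marker covariate and leaving out the 3 libraries highest in atrial markers. The procedure was tested on simulated data. Members, lists and the rule for named genes (all members, Setd7, and up to 4 genes per list with the smallest p in a contrast) were chosen with earlier results of these data known. Levels of Fhl1 and Ankrd1 in each library were picked for printing with their values in view. A coding sequence of the peptides is not reported here.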

Additional observations from a re-analysis of the deposited data

Results flagged for a closer look

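For 3 members every library of a group moved one way under one condition and the opposite way under the other, and the interaction test called none of them. Of all 17636 genes tested, 31% crossed in this way. Npr1 was lower in both Set7KO than in both WT libraries after saline and higher in both after isoproterenol, with an interaction of 0.80 on the log2 scale (edgeR adjusted p = 0.195; 0.13 with GC and length offsets). Npr2 showed the same order, with an interaction of 0.40 (0.324; −0.14 with offsets). Mme was lower after isoproterenol in both Set7KO libraries and higher in both WT libraries, with an interaction of −2.57 (0.111; −0.16 with offsets). In Set7KO that order rests on libraries with 28 against 26 counts. The GC trend too was lower in both Set7KO than in both WT libraries after saline and higher in both after isoproterenol. With offsets the highest value over the lowest fell to 1.30 for Npr1 and 2.56 for Mme, from 1.86 and 5.81. For Npr2 it was 1.31, against 1.30 without them. The part of the GC trend was not tested beyond the offsets.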

How the results depend on the processing

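In all 7 comparisons edgeR called 0 members with all libraries. With DESeq2 isoproterenol in WT called 1 (Furin), beside 2719 of 17636 genes. A fit of WT libraries alone also called 1 (Furin), beside 5043 of 16988 genes. With no filter the interaction called 1 (Mme), beside 1686 of 29066 genes. Leaving out the 3 libraries highest in atrial markers kept 1 library each of WT saline, WT isoproterenol and Set7KO saline. The spread of that fit rested on the Set7KO isoproterenol pair, and its calls are not given. Leaving out 1 library at a time gave member calls only without Set7KO saline replicate 1 and, in WT, also without Set7KO saline replicate 2. Those calls are given with each comparison above, beside the genes called in the same fits, and are not counted here. Neither library is one of the WT libraries, but each changes the spread and the genes tested (18260 and 18172, against 17636). A group left with 1 library is assumed to vary like the others. The cause of the other changes was not tested.

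Signs turned with GC and length offsets for isoproterenol in WT (Npr1 0.028, Npr3 −0.35, Mme −0.47, Ide −0.001, Dpp4 −0.24, Mef2a −0.19, Chchd2-ps 0.20), for Npr2 between genotypes after saline (0.063) and isoproterenol (−0.076), and for the interactions of Npr2 (−0.14) and Npr3 (0.815). Without 1 library they turned for Nppa in WT (−1.94 to 0.49, without WT saline replicate 1), for Corin (−1.48 to 0.64), Atp2a2 (−1.30 to 0.20) and 2510039O18Rik (−0.012 to 0.55) in Set7KO and Mme after saline (−0.005 to 1.88), all without Set7KO saline replicate 2. They also turned for Nppb averaged over genotypes (−1.12 to 0.16, without Set7KO saline replicate 1) and Furin after saline (−0.68 to 0.005, without WT saline replicate 2). No paired analysis was possible because the labels give the groups no shared replicate numbers. The sample titles also hold a letter whose meaning was not given. It was A for Set7KO isoproterenol, C for WT saline and D for WT isoproterenol libraries. In Set7KO saline it was B for replicate 1 and C for replicate 2. The part of this letter in the values was not tested. Mme, at 15 to 160 counts, and Nppc, at 0, are limited by depth.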
